A study of Mus musculus with 12 samples.

Results

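The 34 genes described here are effectors and regulators of the interferon response outside the Ifit, Oas, Gbp and PYHIN families. They were chosen by symbol from the 37991 genes of the deposited count table. All 34 symbols were matched and all 34 passed the filter on low counts, which 18981 genes passed. Their transcripts were counted by RNA sequencing in bone marrow-derived dendritic cells (BMDCs), antigen-presenting cells grown from mouse marrow. Cells of wild-type (WT) C57BL/6 mice and of mice labelled as knockouts (KO) for Vav1, Vav2 and Vav3, with the same strain label, were kept without stimulus (unstimulated, or resting) or received curdlan over 3 hours. Vav proteins are exchange factors that pass signals on from receptors coupled to the kinase Syk, and curdlan is a particulate beta-glucan that binds Dectin-1, a receptor of that kind. Each of the 4 groups held 3 libraries, referred to by the number that each library name carries. These are 1, 2 and 4 for WT in either state, 1, 2 and 5 for unstimulated KO, and 2, 4 and 5 for KO with curdlan. The sources used here state neither the age of the mice nor whether animals were pooled.

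Type I interferons bind the receptor made of Ifnar1 and Ifnar2. Its kinases phosphorylate Stat2, which joins Irf9 in a complex that binds the interferon-stimulated response element (ISRE) in the promoters of target genes. The products of these genes sense foreign nucleic acid, block steps of virus replication, attach the ubiquitin-like protein Isg15 to other proteins, or feed back on the pathway. In dendritic cells such genes can be switched on by interferon that the cells release themselves.

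Library totals ran from 41421718 to 61217861 counts. Each group was sequenced in a lane of its own (5 to 8), and a lane effect and a group effect cannot be told apart. None of the 3 targeted transcripts was lacking in a library labelled KO. Unstimulated Vav2 lay at 66.1, 70.8 and 65 CPM (counts per 1000000 counts of a library, after scaling by TMM factors) in WT and at 276, 285 and 287 CPM in KO by label. Vav1 averaged 133 CPM in resting WT and 212 CPM in unstimulated libraries labelled KO, and Vav3 26.3 and 36.6 CPM. These counts cover whole genes, so reads from deleted and retained exons cannot be separated, and the directions between genotypes given below depend on the labels being right. The dendritic cell marker Itgax was present in all groups, with group means from 788 to 1488 CPM. The sources used here do not say whether libraries of a group came from separate animals or cultures, so the p-values measure the spread between these libraries, which may be technical.

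Promoter sequences show what some of the members share that the choice by symbol did not use. In RefSeq's windows for GRCm38.p6, from 250 bases before to 50 bases after each annotated start, 23 of the 34 members had an entry. The ISRE core, spelled GAAANNGAA and searched on both strands, occurred in 13 of these 23 members (56.5%) and in 9.76% of the 27025 genes with a window. The gamma-activated site, spelled TTCNNNGAA, occurred in 5 of 23 (21.7%) against 9.55% of genes, and a kappa B motif in 1 of 23 (4.35%, Bst2) against 5.14%. In 1 member window an ISRE core match and a gamma-activated site match shared bases. The stretches below lie upstream of the start, are written 5′ to 3′ on the strand of the gene, and carry the core match in capitals. Capitals that begin with TTC hold the core on the opposite strand. They are shown for 6 members with upstream matches that recur in the results: Isg15 and Rsad2, among the members that changed most, Ifih1, Bst2 and Stat2, and Trim25, whose pattern differed from theirs.
Isg15, chr4:156200845-156200926 (minus strand): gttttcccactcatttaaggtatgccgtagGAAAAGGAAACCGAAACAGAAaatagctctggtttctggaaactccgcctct
Rsad2, chr12:26456532-26456601 (minus strand): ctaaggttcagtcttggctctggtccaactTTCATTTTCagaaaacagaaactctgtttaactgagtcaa
Ifih1, chr2:62646328-62646397 (minus strand): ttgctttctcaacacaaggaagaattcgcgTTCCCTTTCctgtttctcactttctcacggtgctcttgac
Bst2, chr8:71537557-71537632 (minus strand): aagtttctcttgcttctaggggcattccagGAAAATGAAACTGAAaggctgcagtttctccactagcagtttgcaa
Stat2, chr10:128270248-128270316 (plus strand): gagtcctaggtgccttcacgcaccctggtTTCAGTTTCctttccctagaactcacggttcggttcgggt
Trim25, chr11:88999364-88999402 (plus strand): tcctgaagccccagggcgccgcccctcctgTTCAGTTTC

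In Isg15 the capitals cover overlapping matches between bases -78 and -58, counted from the first transcribed base as 0. The match of Rsad2 lay between bases -119 and -111 and that of Trim25 directly before the start, between bases -9 and -1. A match describes letters in this window and is no evidence of binding, and the 10 members without a core match (Cmpk2, Isg20, Herc6, Dtx3l, Nmi, Ifi35, Sp100, Daxx, Xaf1 and Lgals3bp) lack it only in these windows. Median log2 fold changes with curdlan, for members with and without a match, were 1.03 and 0.78 in WT and 0.89 and 0.94 in KO. For KO against WT they were 1.20 and 1.11 without curdlan and 1.27 and 1.40 with it. A relation of matches to these changes was not tested.

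**Figure D1:**
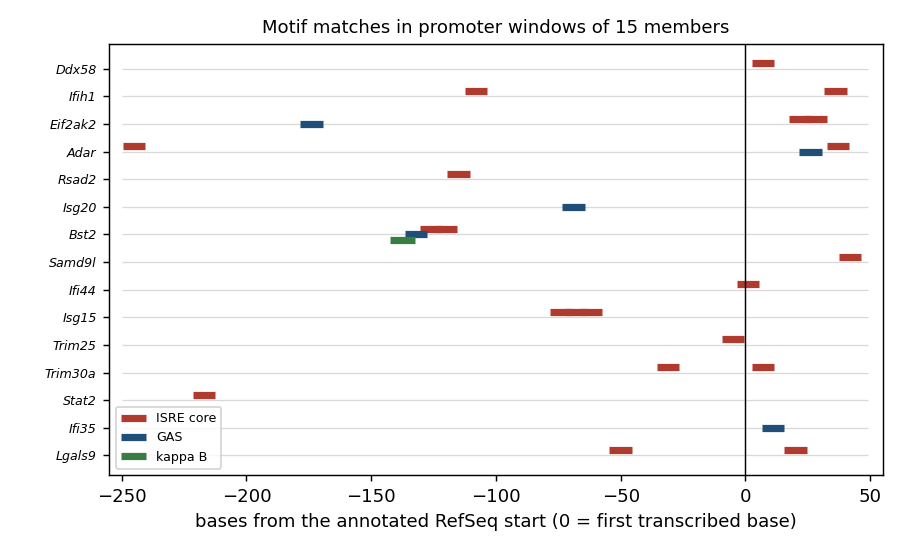
Positions of motif matches in the promoter windows of the 15 members that had any, in bases from the RefSeq start (x axis), 1 line per gene; red bars are ISRE core matches, blue bars gamma-activated sites and the green bar a kappa B motif. ISRE core matches lie in 13 members, both upstream and downstream of the start.

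Most members rose with curdlan, and most were higher in the libraries labelled KO. In WT cells curdlan raised 25 of the 34 members and lowered 0 (edgeR quasi-likelihood test, adjusted p under 0.05 over all genes tested), where 11.4% of all genes tested rose and 8.4% fell. The median log2 fold change was 0.97 over the members and -0.03 over all genes tested, and 17 members were at least 2-fold higher. In the libraries labelled KO curdlan raised 29 and lowered 0, with 14% of all genes rising and 14.6% falling, and the members' median was 0.87. Every curdlan library lay above every unstimulated library for 27 members in WT (21.1% of all genes) and for 30 in the libraries labelled KO (18.6% of all genes). At an unadjusted p under 0.05 the edgeR test lowered 0 members in either genotype, and DESeq2 with adjustment also lowered 0.

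Between genotypes the members stood higher in the libraries labelled KO whether or not curdlan was present. Without curdlan 31 of 34 were higher and 0 lower, with 21.1% of all genes higher and 23.3% lower, and the members' median log2 fold change was 1.20 against -0.01 over all genes. With curdlan 33 were higher and 0 lower, with 24.7% of all genes higher and 26.8% lower, and the median was 1.28 against 0.01. Every library labelled KO lay above every WT library for 33 members without curdlan (26.3% of all genes) and for 32 with it (27.4% of all genes). At an unadjusted p under 0.05, and by DESeq2 with adjustment, 0 members were lower in either state. In all 4 of these comparisons 23 members were called higher. In the authors' deposited table for KO against WT with curdlan, 33 members are higher and 0 lower past an adjusted p of 0.05, and the same 33 are called here. Scaling by library size alone, in place of TMM factors, left 0 called members with the opposite sign but shifted all genes downward. It called Nmi lower with curdlan in WT and Lgals3bp and Ly6e lower with curdlan in KO, where the TMM fit called none lower. The median of all genes moved to -0.17 and -0.20 for curdlan in WT and KO and to -0.19 and -0.24 for KO against WT without and with curdlan. Of all genes, 2164 rose and 1595 fell with curdlan in WT by the TMM fit against 1534 and 4589 by library size, and 2658 and 2767 against 1326 and 6073 in KO. KO against WT gave 4007 higher and 4421 lower against 2551 and 7104 without curdlan, and 4682 and 5080 against 2459 and 7921 with it. These comparisons share libraries, so their counts are not independent of each other.

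**Figure D2:**
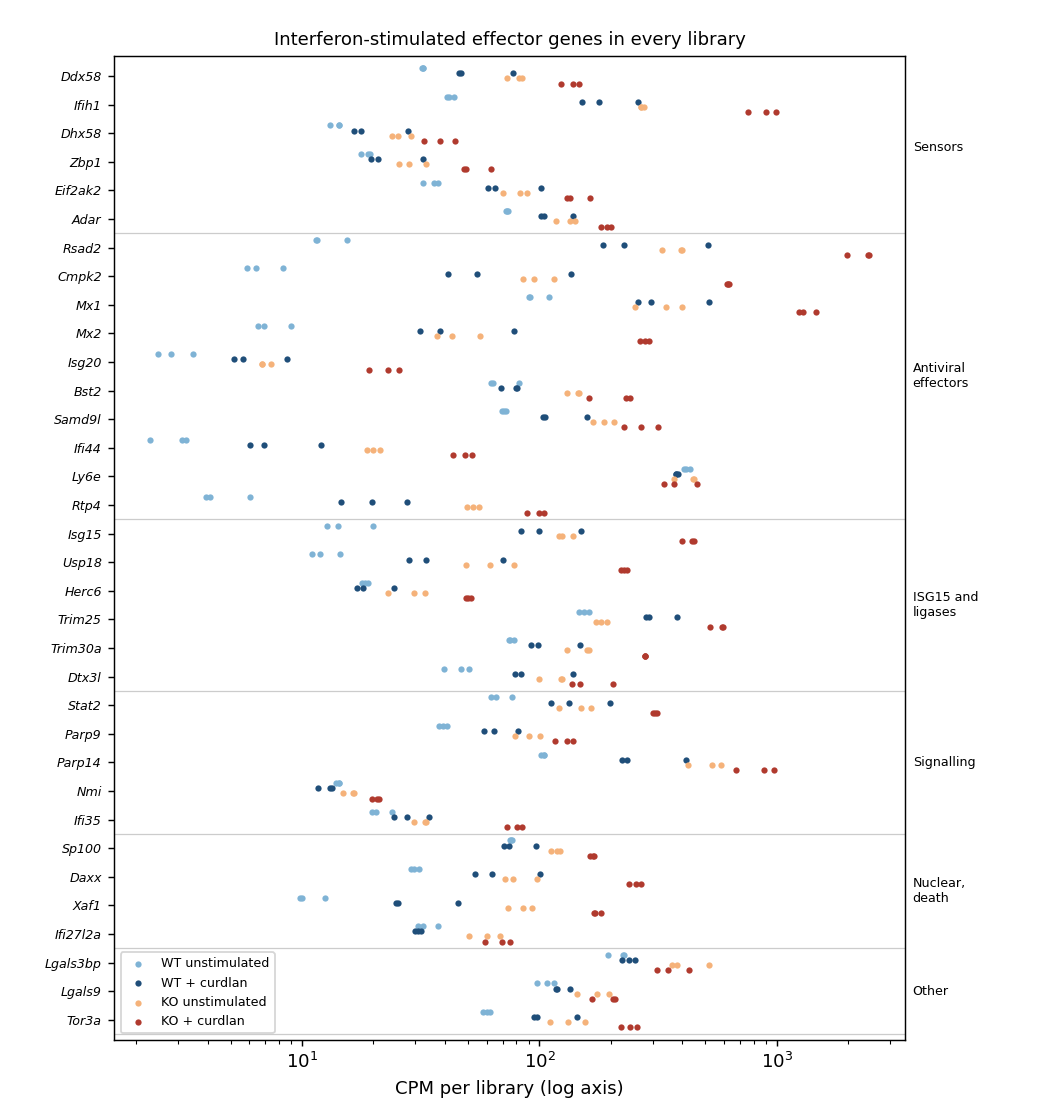
CPM of each of the 34 members in each of the 12 libraries (x axis, log scale), 1 row per gene grouped by role, coloured by group, with 3 points per group. For most members the points run from unstimulated WT on the left to KO with curdlan on the right, and Ly6e lies between 335 and 462 CPM in all 12 libraries.

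Markers of other cell types also differed between the genotypes, and their values are given beside the members' difference. Of 10 macrophage markers, 8 were higher and 0 lower in unstimulated libraries labelled KO, with C1qa at 62.1 CPM in WT and 1193 CPM in KO, and the summed markers ran from 1559 to 1725 CPM and from 5598 to 6415 CPM. Of 10 neutrophil markers 9 were higher, their sums running from 4608 to 5862 CPM and from 6602 to 10379 CPM, and all 3 mast cell and basophil markers tested were higher, with Mcpt4 at 0 in every library. The calls of Camp, Ngp and S100a8 were lost without KO unstimulated 5 or WT unstimulated 1 or 2 (edgeR adjusted p up to 0.151). By library size alone those of Camp and S100a8 were lost too (0.0997 and 0.0514). All 5 B cell markers were lower, with Cd79a at 15.7 CPM in WT and 0.182 CPM in KO and sums from 32.9 to 41.2 CPM and from 1.31 to 1.72 CPM. Conventional dendritic cell markers were mixed (4 higher, 3 lower of 10), with sums of 3093 to 3263 CPM and 3850 to 4735 CPM. Plasmacytoid dendritic cells are known as strong interferon producers. Of 8 markers for them 3 were higher and 3 lower in unstimulated KO, with sums of 80 to 85.6 CPM in WT and 67.8 to 76.1 CPM in KO. With curdlan 2 were higher and 5 lower, with sums of 103 to 112 CPM and 71.8 to 77 CPM. The defining marker Siglech averaged 0.263 to 0.448 CPM over the 4 groups. T cell and NK cell markers were scarce, with sums of at most 4.81 and 2.50 CPM, and 1 of 2 and 1 of 3 tested were lower in KO in each state. With curdlan 7 macrophage markers were higher and 1 lower in the libraries labelled KO, 9 neutrophil markers were higher and all 5 B cell markers lower. The calls with curdlan of Marco, Ngp, Ltf and the plasmacytoid marker Tcf4 were each lost without some single library (edgeR adjusted p up to 0.185). The part of these cell types in the members' difference was not tested, and in bulk RNA more cells of a type and more RNA per cell cannot be told apart.

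With curdlan, 3 of 10 conventional dendritic cell markers were higher and 1 lower in WT, where 11.4% of all genes rose and 8.4% fell. In KO 3 were higher and 0 lower, with 14% of all genes rising and 14.6% falling. Of 8 plasmacytoid markers 1 was higher in WT and 2 were lower in KO, and 1 T cell and 1 NK cell marker were higher in KO. Of the 25 macrophage, neutrophil and B cell markers tested in WT, the macrophage receptor gene Mertk was the 1 called, higher by a log2 fold change of 0.82, and 2 neutrophil markers were lower at an unadjusted p under 0.05. Among libraries labelled KO curdlan raised 2 and lowered 1 of the macrophage markers and lowered 2 of the neutrophil markers. The calls of Batf3 in WT and of Sirpa, Pacsin1 and Ltf in KO were each lost without some single library (edgeR adjusted p up to 0.148). By library size alone the Sirpa call in KO was lost too (0.629). The members' sum rose from between 1974 and 2041 CPM to between 3127 and 4990 CPM in WT. It rose from between 4366 and 5087 CPM to between 10902 and 12191 CPM in the libraries labelled KO.

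WT library 4 with curdlan stood apart from WT 1 and 2 within its group. It held the highest value of the group for 31 of the 34 members, and WT 2 with curdlan the lowest for 28. The members' sum was 4990 CPM in WT 4, 3386 CPM in WT 1 and 3127 CPM in WT 2. Without WT 4 the members raised by curdlan in WT numbered 23 in place of 25. Among unstimulated libraries labelled KO, library 5 was lowest for 26 members and also held the highest neutrophil sum, 10379 CPM. With curdlan KO 5 again held the highest neutrophil sum of its group, 9606 CPM, but was lowest for 8 members and highest for 10. WT 4 held the highest neutrophil sum in both WT groups, 5862 CPM unstimulated and 4626 CPM with curdlan. Unstimulated WT 4 was lowest for 13 members and highest for 7. A relation of neutrophil sums to member levels was not tested.

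Of the 6 sensors of foreign nucleic acid, 5 rose in WT and 6 in the libraries labelled KO. Ifih1, which encodes the double-stranded RNA sensor Mda5, measured 41.4, 40.7 and 43.8 CPM in WT 1, 2 and 4 at rest, and 177, 151 and 261 CPM with curdlan. In the libraries labelled KO it measured 268, 267 and 277 CPM (1, 2 and 5) and, with curdlan, 994, 759 and 899 CPM (2, 4 and 5). None of the 4 groups overlapped. The log2 fold change with curdlan was 2.23 in WT (SE 0.17, edgeR adjusted p = 3.47e-06) and 1.71 in KO (SE 0.17, adjusted p = 2.49e-05), and that of KO against WT was 2.69 without curdlan and 2.17 with it (adjusted p = 2.21e-07 and 1.14e-06).

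Ddx58, which encodes the RNA sensor Rig-I, rose by a log2 fold change of 0.81 in WT and 0.77 in KO, from 32.2 CPM on average in unstimulated WT, and was higher in KO by 1.31 and 1.27. Eif2ak2, the kinase PKR that halts translation on double-stranded RNA, rose by 1.11 and 0.83, and Adar, the enzyme that edits adenosines in double-stranded RNA, by 0.65 and 0.55. Between genotypes Eif2ak2 was higher in KO by 1.20 and 0.91, Adar by 0.84 and 0.74 and Dhx58 by 0.91 and 0.88. Adar shares 1365 exon bases with Chrnb2 on the opposite strand, a gene with 537 counts in all against 72916 for Adar. Dhx58, a regulator of the former pair of sensors, rose by 0.58 in WT and 0.55 in KO. Its WT call was lost without WT unstimulated 1, 2 or 4 or WT curdlan 4 (adjusted p up to 0.148), and its KO call without KO unstimulated 2 or 5 or KO curdlan 2 or 5 (adjusted p up to 0.112), and both by library size alone (0.0637 and 0.115). Zbp1, which senses left-handed nucleic acid and can trigger necroptosis, measured 19, 19.4 and 17.7 CPM in resting WT and 21, 19.5 and 32.5 CPM with curdlan. Its value of 0.38 in WT did not pass (adjusted p = 0.147), while with library number as a block it was 0.35 and passed (adjusted p = 0.044). Among libraries labelled KO Zbp1 rose by 0.88 (adjusted p = 0.00289), and it stood above WT by 0.63 and 1.13.

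Direct antiviral effectors showed the widest range. Rsad2, which encodes viperin, an enzyme that makes a chain-terminating nucleotide, measured 15.4, 11.5 and 11.5 CPM in resting WT and 228, 186 and 514 CPM in WT with curdlan. In the libraries labelled KO it measured 393, 400 and 328 CPM, and 2425, 1976 and 2439 CPM with curdlan. Unstimulated KO values thus lay within the range of WT with curdlan, above WT 1 and 2 and below WT 4, and the other groups stood apart. The log2 fold change with curdlan was 4.59 in WT (SE 0.34, edgeR adjusted p = 3.15e-06) and 2.61 in KO (SE 0.31, adjusted p = 9.28e-05). Against WT, KO stood higher by 4.86 without curdlan and by 2.88 with it (adjusted p = 5.1e-07 and 1.37e-05), the largest fold change of any member without curdlan.

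Cmpk2, a mitochondrial nucleotide kinase whose gene is the neighbour of Rsad2, 12.8 kb away on chromosome 12 and on the opposite strand, followed a like order of groups. It measured 8.33, 6.43 and 5.87 CPM in resting WT, 54.3, 41.3 and 136 CPM with curdlan, 94.9, 115 and 85.2 CPM in resting KO and 628, 625 and 618 CPM in KO with curdlan. The curdlan log2 fold change was 3.48 in WT and 2.67 in KO (SE 0.37 and 0.35, edgeR adjusted p = 4.53e-05 and 0.000176). Against WT, KO stood higher by 3.83 and 3.02, the latter the largest of any member with curdlan.

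Mx1 and Mx2 belong to a family of dynamin-like GTPases that trap viral components, and their genes lie 72.4 kb apart on chromosome 16. GENCODE M21 annotates Mx1 as protein coding and Mx2 as a polymorphic pseudogene. Transcript counts do not show whether either gene makes a working protein in these mice. Mx1 measured 110, 90.4 and 91.4 CPM in resting WT, 296, 259 and 517 CPM with curdlan, 340, 397 and 252 CPM in resting KO and 1458, 1290 and 1241 CPM in KO with curdlan. Its curdlan log2 fold change was 1.88 in WT and 2.01 in KO (SE 0.23 for both, edgeR adjusted p = 0.000157 and 8.41e-05). Mx2 rose from a mean of 7.46 CPM to 49.3 CPM in WT and from 45.4 CPM to 278 CPM in KO, log2 fold changes of 2.72 and 2.62. KO against WT gave 1.76 and 1.90 for Mx1 and 2.60 and 2.50 for Mx2, without and with curdlan. The sources used here do not state how reads shared by near-identical genes were counted, so the split between this pair, and the values of Trim30a, Ly6e and Ifi27l2a, which have close relatives in the genome, are less certain.

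The remaining effectors moved less or unevenly. Isg20, an RNA exonuclease, rose by 1.15 in WT and 1.69 in KO, and Ifi44 by 1.52 and 1.26. Ifi44 measured 3.24, 3.12 and 2.3 CPM in resting WT against 21.2, 20 and 18.7 CPM in resting KO, a log2 fold change of 2.79 (SE 0.22, edgeR adjusted p = 1.38e-06) between groups that lay far apart. Rtp4, a chaperone of receptors with antiviral activity, measured 6.05, 4.1 and 3.96 CPM in resting WT and 19.7, 14.6 and 27.6 CPM with curdlan. Its values were 52.6, 55.8 and 49.6 CPM in resting KO and 99.3, 88.5 and 104 CPM in KO with curdlan, so that unstimulated KO exceeded WT with curdlan in every library. Rtp4 was higher in KO by 3.48 without curdlan, a fold change below those of Rsad2 and Cmpk2 alone among the members, and by 2.24 with it. Samd9l, a restriction factor of poxviruses, rose by 0.79 in WT and 0.53 in KO, and its KO call was lost without KO unstimulated 2 or 5 or KO curdlan 2 or 5 (adjusted p up to 0.0798) and by library size alone (0.105). KO against WT gave 1.26 and 1.80 for Isg20 and 1.40 and 1.14 for Samd9l, without and with curdlan.

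Bst2, or tetherin, which holds budding virus at the cell surface and in mice also marks plasmacytoid dendritic cells, did not pass in WT. It measured 82.3, 63.8 and 62.7 CPM in resting WT and 80.8, 68.6 and 79.8 CPM with curdlan, values that overlapped (log2 fold change 0.13, edgeR adjusted p = 0.559). In KO it rose by 0.58 (adjusted p = 0.0105), from 147, 130 and 145 CPM to 162, 240 and 231 CPM, a call lost by library size alone (0.38, adjusted p = 0.0526). Bst2 was higher in KO by 1.02 and 1.47 without and with curdlan. Ly6e, a surface protein that impairs coronavirus fusion, was the one member called in no comparison. It measured 407, 429 and 414 CPM in resting WT and 378, 377 and 384 CPM with curdlan, every curdlan library lower (log2 fold change -0.13, adjusted p = 0.427). Among libraries labelled KO it measured 448, 368 and 441 CPM and then 369, 335 and 462 CPM, which overlapped each other and the WT values. By library size alone the curdlan value of Ly6e in KO passed as a fall (-0.31, adjusted p = 0.0362).

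Among the genes of the Isg15 system and the ubiquitin ligases, Isg15, the ubiquitin-like modifier itself, rose most in WT. It measured 19.9, 12.7 and 14.2 CPM in resting WT, 99.7, 83.8 and 149 CPM with curdlan, 125, 138 and 121 CPM in resting KO and 400, 448 and 438 CPM in KO with curdlan. Unstimulated KO again fell within the range of WT with curdlan, above WT 1 and 2 and below WT 4. The curdlan log2 fold change was 2.83 in WT and 1.74 in KO (SE 0.21 and 0.20, edgeR adjusted p = 2.7e-06 and 7.02e-05), and KO stood above WT by 3.04 and 1.95. Usp18, the protease that removes Isg15 and dampens the interferon receptor, rose by 1.82 and 1.85, from means of 12.5 and 63 CPM, and was higher in KO by 2.34 and 2.37.

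Trim25, a ligase that activates Rig-I, was the exception in this group at rest. It measured 147, 155 and 161 CPM in resting WT and 181, 192 and 172 CPM in resting KO, separate values that did not pass (log2 fold change 0.24, edgeR adjusted p = 0.0899). They did pass in a fit of these groups alone (adjusted p = 0.0232) and without WT curdlan 4 (0.0243). With curdlan it measured 289, 281 and 378 CPM in WT and 595, 524 and 587 CPM in KO, rises of 1.03 and 1.64 (adjusted p = 4.1e-05 and 1.9e-06). Herc6, the ligase that attaches Isg15 in mice, had 17.8, 18.4 and 19 CPM in resting WT and 18.1, 17 and 24.4 CPM with curdlan (0.11, adjusted p = 0.635), and rose by 0.82 in KO (adjusted p = 0.00111). Trim30a, a ligase that restrains Toll-like receptor signalling, rose by 0.58 in WT and 0.89 in KO, and the WT call was lost without WT unstimulated 2 or 4 (adjusted p = 0.0529 and 0.0517). Herc6 was higher in KO by 0.63 and 1.34 and Trim30a by 0.99 and 1.30.

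Dtx3l, a ligase that works as a pair with Parp9, measured 39.6, 46.7 and 50.7 CPM in resting WT and 78.7, 83.3 and 138 CPM with curdlan, a rise of 1.13 (edgeR adjusted p = 0.00249). In the libraries labelled KO its values of 124, 123 and 99.4 CPM and, with curdlan, 205, 137 and 148 CPM gave 0.50, which did not pass (adjusted p = 0.091). It passed with library number as a block (0.66, adjusted p = 0.000753) and without WT curdlan 4 (0.50, adjusted p = 0.0299). In the block fit the KO response rests on libraries 2 and 5, the numbers that KO holds in both states. Dtx3l was higher in KO by 1.34 without curdlan (adjusted p = 0.000257). Its difference between genotypes with curdlan, 0.71 (adjusted p = 0.0129), was lost without WT curdlan 1 or 2 or KO curdlan 2 (adjusted p up to 0.0604) and by library size alone (0.46, adjusted p = 0.0723). The genes of Dtx3l and Parp9 overlap head to head by 682 bases on chromosome 16 and share 458 exon bases. The strand setting of the counting is unstated in the sources used here and the library kit does not mark strand, so reads from the shared bases cannot be assigned to either gene.

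The signalling group holds Stat2, the subunit of the interferon-activated factor that carries its main activation domain. It measured 76.3, 62.7 and 65.6 CPM in resting WT, 133, 111 and 198 CPM with curdlan, 150, 165 and 121 CPM in resting KO and 305, 313 and 302 CPM in KO with curdlan. Its curdlan log2 fold changes were nearly equal, 1.11 in WT and 1.08 in KO (SE 0.18 for both, edgeR adjusted p = 0.000946 and 0.000909), and KO stood above WT by 1.09 and 1.06. The 95% interval of the difference between the responses ran from -0.57 to 0.51, which leaves room for a sizeable difference either way.

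Parp9, an ADP-ribosyltransferase that binds Dtx3l, rose by 0.80 in WT and 0.51 in KO, the latter lost by library size alone (0.31, edgeR adjusted p = 0.0548), and was higher in KO by 1.20 and 0.91. Parp14, a larger enzyme of the same family encoded 55 kb from Dtx3l, measured 105, 102 and 105 CPM in resting WT and 234, 223 and 412 CPM with curdlan. It reached 533, 580 and 424 CPM in resting KO and 968, 879 and 676 CPM in KO with curdlan, and every unstimulated KO library exceeded every WT curdlan library. The curdlan log2 fold change of Parp14 was 1.48 in WT and 0.71 in KO (SE 0.22 and 0.21, edgeR adjusted p = 0.000488 and 0.0247). The KO call was lost without KO unstimulated 1 or 5 or KO curdlan 2 or 4 (adjusted p up to 0.0832) and with scaling by library size alone (0.0692). Parp14 was higher in KO by 2.30 without and 1.54 with curdlan.

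Nmi and Ifi35, partner proteins that bind each other and regulate sensor signalling, stood out by a larger curdlan response in KO, given with its test below. Nmi measured 14.3, 13.9 and 14.3 CPM in resting WT and 13.1, 11.7 and 13.3 CPM with curdlan, every curdlan library lower, by an amount that did not pass (log2 fold change -0.16, edgeR adjusted p = 0.163). In the libraries labelled KO it rose from 16.4, 16.5 and 14.9 CPM to 21.2, 19.7 and 20.7 CPM (0.36, adjusted p = 0.00344), a call lost by library size alone (0.17, adjusted p = 0.0976). By library size its WT value passed as a fall (-0.29, adjusted p = 0.0116). Nmi was higher in KO with curdlan by 0.69, and Ifi35 by 0.58 without and 1.46 with it. Ifi35 rose from 23.9, 20.4 and 19.7 CPM to 27.6, 24.3 and 34.4 CPM in WT (0.43, adjusted p = 0.0242) and from 33.1, 33.2 and 29.6 CPM to 72.8, 84.7 and 80.5 CPM in KO (1.31, adjusted p = 1.77e-05). The WT call of Ifi35 was lost without WT unstimulated 2 or 4 or WT curdlan 4 (adjusted p up to 0.119) and with scaling by library size alone (0.0785).

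Of the nuclear body and cell death genes, Daxx and Xaf1 rose in both genotypes. Xaf1, an antagonist of inhibitors of apoptosis, measured 12.5, 9.98 and 9.85 CPM in resting WT, 25.5, 24.9 and 45.6 CPM with curdlan, 85.5, 92.6 and 73.5 CPM in resting KO and 170, 171 and 182 CPM in KO with curdlan. The groups did not overlap, and unstimulated KO lay above WT with curdlan. Its log2 fold change was 1.57 in WT and 1.06 in KO with curdlan, and 2.96 and 2.45 for KO against WT without and with it (edgeR adjusted p = 4.97e-07 and 1.85e-06 for the latter pair). Daxx, a histone chaperone of nuclear bodies, rose by 1.28 in WT and 1.63 in KO and was higher in KO by 1.46 and 1.81. Sp100, another nuclear body protein, had overlapping values of 76.5, 76.2 and 75.4 CPM and 74.1, 70.7 and 96.7 CPM in WT (0.08, adjusted p = 0.602) and rose by 0.51 in KO (adjusted p = 0.00248), which stood above WT by 0.62 and 1.05.

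Ifi27l2a, a small membrane protein, differed by genotype and did not pass with curdlan in either. It measured 37.5, 32.4 and 30.9 CPM in resting WT and 31.6, 30.9 and 29.9 CPM with curdlan, and 68.4, 50.6 and 59.9 CPM in resting KO and 58.7, 69.2 and 75 CPM in KO with curdlan. The states overlapped within each genotype (log2 fold changes of -0.13 and 0.18, edgeR adjusted p = 0.483 and 0.27), while every KO library exceeded every WT library (0.83 and 1.14, adjusted p = 0.000116 and 1e-05). With library number as a block, which in KO uses libraries 2 and 5, the KO response was 0.27 and passed (adjusted p = 0.0135).

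The galectin-linked genes likewise differed by genotype and not past the threshold with curdlan. Lgals3bp, a secreted glycoprotein that binds galectins, measured 227, 225 and 194 CPM in resting WT, 252, 222 and 238 CPM with curdlan, 516, 380 and 360 CPM in resting KO and 428, 314 and 348 CPM in KO with curdlan. Curdlan gave 0.14 in WT and -0.20 in KO, neither past the threshold (edgeR adjusted p = 0.535 and 0.308), and KO stood above WT by 0.96 and 0.61. Lgals9, or galectin-9, gave 0.21 and 0.17 with curdlan (adjusted p = 0.256 and 0.321) and 0.68 and 0.64 between genotypes. With library number as a block the Lgals9 value in WT stayed at 0.21 and passed (adjusted p = 0.0368). In KO, where the block uses libraries 2 and 5, it was 0.38 and passed (adjusted p = 0.00543). By library size alone the Lgals3bp value in KO passed as a fall (-0.40, adjusted p = 0.0376). Tor3a, an ATPase of the endoplasmic reticulum, rose by 0.91 and 0.85 and was higher in KO by 1.14 and 1.09.

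**Figure D3:**
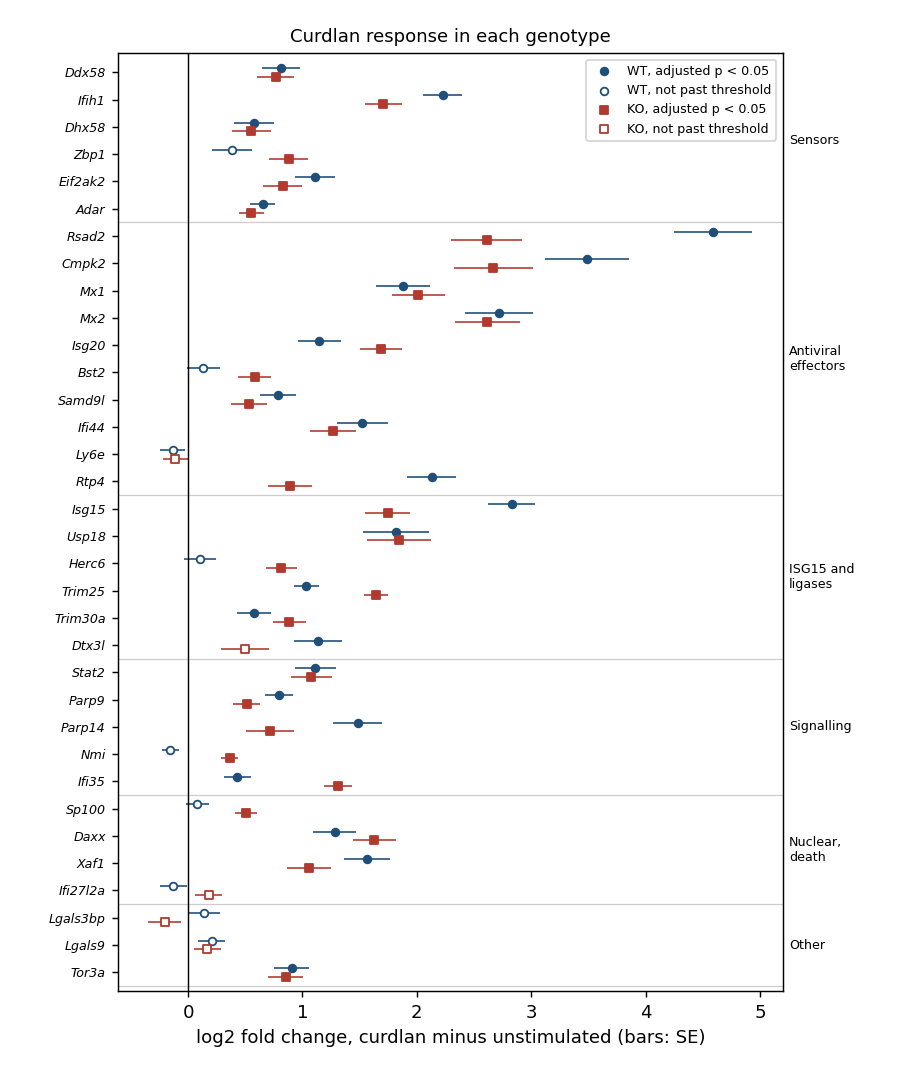
Curdlan log2 fold change of each member (x axis) in WT (blue circles) and in libraries labelled KO (red squares), with standard errors from the edgeR fit; filled symbols passed an adjusted p of 0.05. Rsad2, Rtp4 and Isg15 lie further right in WT, and Trim25, Nmi and Ifi35 further right in KO.

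**Figure D4:**
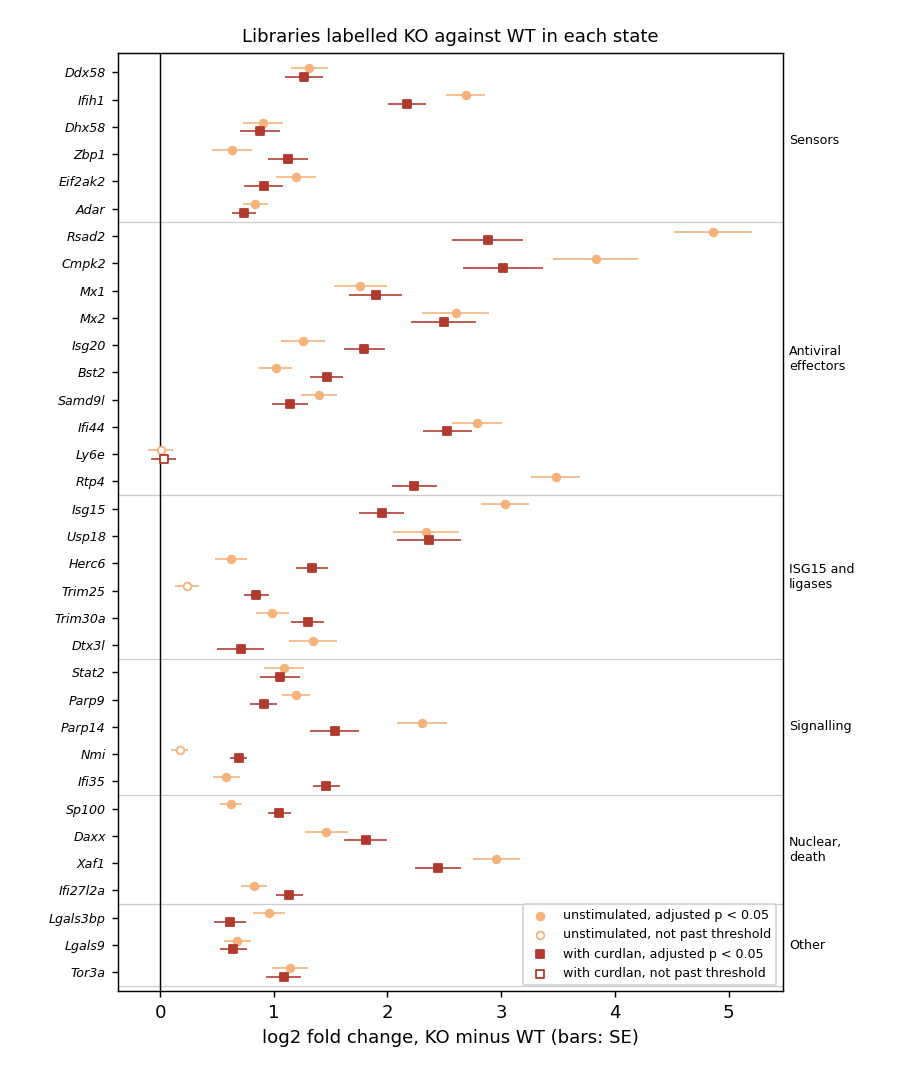
Log2 fold change of each member in libraries labelled KO against WT (x axis), unstimulated (orange circles) and with curdlan (red squares), with standard errors from the edgeR fit; filled symbols passed an adjusted p of 0.05. Members lie right of 0, from Ly6e near 0 to Rsad2 at 4.86 without curdlan, except that Ly6e in both states and unstimulated Nmi lay below 0 when scaled by library size.

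A test of the difference between the responses asks whether curdlan changed a member more in one genotype than in the other. Over all genes 305 had a higher and 684 a lower response in KO by the TMM fit, against 207 and 1114 by library size. The test called 3 members with a larger response in KO, where 1.61% of all genes tested were called in that direction, and 3 with a larger response in WT, where 3.6% were. The members' median difference was -0.04, and -0.00 over all genes. The responses of Rsad2, Rtp4 and Isg15 were larger in WT, by log2 differences of -1.98 (SE 0.42), -1.24 (SE 0.28) and -1.08 (SE 0.27), with edgeR adjusted p = 0.0211, 0.0276 and 0.0419. Their unstimulated levels were much higher in KO, and their curdlan levels were higher in KO too.

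The responses of Ifi35, Trim25 and Nmi were larger in KO, by 0.88 (SE 0.17), 0.61 (SE 0.15) and 0.52 (SE 0.10), with edgeR adjusted p = 0.0138, 0.0391 and 0.0173. At rest the values of Trim25 and Nmi in KO against WT were 0.24 and 0.17, neither past the threshold in the fit of all libraries, and with curdlan both were higher, by 0.85 and 0.69. The Nmi value at rest passed without KO curdlan 5 (0.20, adjusted p = 0.0465). These calls were fragile except that of Ifi35, which held with any library left out. The calls of Rsad2 and Rtp4 were lost without WT unstimulated 2 or 4, KO unstimulated 1 or KO curdlan 4 (adjusted p up to 0.0575 and 0.0703), and that of Nmi without WT curdlan 2 (0.46, adjusted p = 0.0536). The Isg15 call was lost without WT unstimulated 2 or 4, WT curdlan 1 or 4, any of the unstimulated KO libraries, or KO curdlan 4 or 5 (adjusted p up to 0.0911). The Trim25 call was lost without any of the unstimulated WT libraries, WT curdlan 1 or 2, KO unstimulated 1 or 5, or KO curdlan 5 (adjusted p up to 0.106).

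The counts moved with these choices. Members with a larger response in KO numbered 8 with library number as a block within each genotype, 5 by DESeq2 and 7 without WT curdlan 4. Those with a larger response in WT numbered 4 with the block and 0 without WT unstimulated 2 or 4, KO unstimulated 1 or KO curdlan 4. The block added Herc6 (0.87, edgeR adjusted p = 0.00254), Zbp1, Isg20, Sp100 and Ifi27l2a with a larger response in KO and Parp14 (-0.72, adjusted p = 0.0276) with a larger response in WT. With this block the KO response comes from libraries 2 and 5 alone, since KO 1 and KO 4 are each present in a single state. For members that did not pass, the intervals were often wide. The 95% interval for Mx1 ran from -0.56 to 0.83, for Mx2 from -0.95 to 0.75, for Cmpk2 from -1.84 to 0.21 and for Ddx58 from -0.55 to 0.45, so like responses are not shown.

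Setting unstimulated libraries labelled KO against WT libraries with curdlan compares resting KO levels with induced WT levels. This comparison was added after the values had been seen. Of the 34 members, 16 were higher in resting KO and 1 was lower, with 15.3% of all genes higher and 19% lower, and 17 did not pass. The members' median log2 difference was 0.34, against -0.00 over all genes, and the mean was higher in resting KO for 30. The count of higher members was 27 without WT curdlan 4 and 11 without WT curdlan 1, WT curdlan 2 or KO unstimulated 1.

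Xaf1, Rtp4 and Ifi44 stood furthest above the induced WT level, by log2 differences of 1.39, 1.35 and 1.26 (edgeR adjusted p = 0.000163, 0.000208 and 0.000512). For Rsad2 the difference was 0.27 (95% interval -0.36 to 0.91), for Isg15 0.21 (-0.21 to 0.62), for Mx1 -0.12 (-0.61 to 0.37) and for Stat2 -0.02 (-0.40 to 0.36). These intervals do not show equal levels. Trim25 was the 1 member lower in resting KO, by -0.80 (95% interval -1.03 to -0.56, adjusted p = 0.000111).

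**Figure D5:**
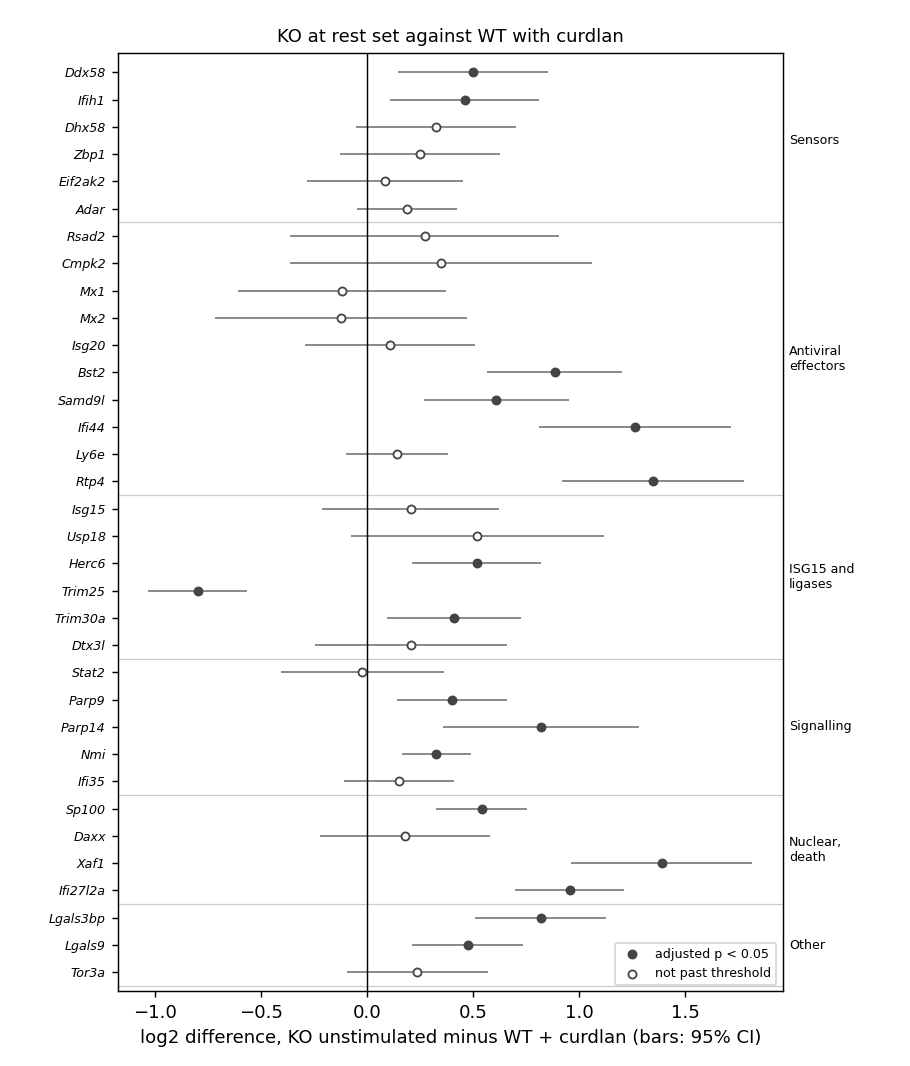
Log2 difference of each member between unstimulated libraries labelled KO and WT libraries with curdlan (x axis), with 95% intervals from the edgeR fit; filled symbols passed an adjusted p of 0.05. Most members lie at or right of 0, and Trim25 lies at -0.80.

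Levels can be compared between genes only per length, as reads per kilobase of GENCODE M21 exons from the CPM values (RPKM, group means). In unstimulated WT the highest members were Ly6e (110 RPKM), Bst2 (77.1) and Lgals3bp (75.7), and the lowest Ifi44 (0.471), Isg20 (1.57) and Cmpk2 (1.65). In KO with curdlan the highest were Isg15 (567 RPKM), Rsad2 (526) and Mx1 (351), and the lowest Herc6 (5.39). Of the 3 highest members in unstimulated WT, by the TMM fit, Ly6e was called in none of the comparisons and Lgals3bp did not pass with curdlan. Rsad2 stood at 2.95 RPKM in unstimulated WT.

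The upstream genes of the pathway were read from lists of ligands, receptors, signal transducers, regulatory factors and sensor adaptors. Of 11 interferon ligand genes matched, 1 passed the filter on low counts. Ifnb1, which encodes interferon-beta, measured 0.114, 0.1 and 0.104 CPM in resting WT, 20 counts in all, and 5.27, 3.82 and 7.63 CPM with curdlan. It measured 1.01, 2.07 and 1.39 CPM in resting KO and 38.3, 19.2 and 34.9 CPM in KO with curdlan. The groups did not overlap, and the log2 fold changes were 5.68 and 4.39 with curdlan (edgeR adjusted p = 6.67e-06 and 4.19e-06) and 3.76 and 2.47 for KO against WT. The other 10 ligand genes averaged at most 0.0686 CPM in any group, and 8 further symbols of the list had no match in the files' symbols.

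Both chains of the type I receptor were higher in the libraries labelled KO. Ifnar1 averaged 145 and 184 CPM in WT, without and then with curdlan, and 294 and 259 CPM in KO, log2 fold changes of 1.02 and 0.50 for KO against WT (edgeR adjusted p = 1.08e-06 and 0.000239). Ifnar2 was higher by 1.00 and 0.54. Of 6 receptor genes tested 5 were higher and 0 lower in unstimulated KO, and with curdlan 4 were higher and 1, Ifngr1, lower. Curdlan raised 2 receptor genes in WT, Ifnar1 (0.34) and Ifnar2 (0.25), and raised 1 and lowered 3 in KO. Most of these receptor calls were fragile. By library size alone those of Ifnar1 and Ifnar2 in WT (edgeR adjusted p = 0.0612 and 0.267) and of the Il10rb rise in KO (0.253) were lost. The Ifnar2 call in WT was also lost without any unstimulated WT library or WT curdlan 1 or 2 (adjusted p up to 0.113). In KO the Ifnar2 fall was lost without any KO curdlan library, KO unstimulated 1 or 5, WT curdlan 2 or WT unstimulated 4 (up to 0.154). The Ifnlr1 fall was lost without KO curdlan 2 or 4 or KO unstimulated 1 or 5 (up to 0.108), and the Il10rb rise without KO curdlan 4 or 5 or KO unstimulated 1 (up to 0.093).

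Among 10 signal transducers, 4 rose in WT and 6 in KO with curdlan, and 8 and 7 were higher in KO against WT without and with curdlan. Irf9, the DNA-binding partner of Stat2, rose by 1.08 in WT and 0.72 in KO and was higher in KO by 1.00 and 0.64. Socs1 and Socs3, feedback inhibitors, were higher in unstimulated KO by 2.05 and 1.97.

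Of 7 interferon regulatory factors tested, 4 rose and 1 fell with curdlan in each genotype. Irf7, a factor that amplifies interferon genes and is itself an interferon target, measured 7.55, 6.55 and 5.8 CPM in resting WT and 23.2, 18.5 and 45 CPM with curdlan. It measured 54.7, 33.1 and 48.2 CPM in resting KO and 105, 91.1 and 141 CPM in KO with curdlan. Its resting KO values overlapped those of WT with curdlan. The log2 fold changes were 2.12 and 1.31 with curdlan and 2.77 and 1.96 for KO against WT (edgeR adjusted p = 0.000478, 0.00537, 1.9e-05 and 0.000165). Irf3, which is activated without a rise in its transcript, stayed between 25.3 and 28.3 CPM in the group means.

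Of 13 sensor adaptors and kinases, 7 rose and 1 fell with curdlan in WT and 3 rose and 2 fell in KO. Of all genes, 11.4% rose and 8.4% fell in WT, and 14% and 14.6% in KO. Between genotypes 10 were higher and 3 lower without curdlan, and 7 and 3 with it. Some of these calls were fragile. The WT rises of Ticam1 and Traf3 were lost by library size alone (edgeR adjusted p = 0.0827 and 0.126). Without some single libraries they were lost too (up to 0.122). A fall in KO was lost without some single libraries (up to 0.145). With curdlan, some higher calls in KO against WT were lost by library size (up to 0.953). Mavs, the adaptor of Rig-I and Mda5, was lower in KO by -0.54 and -0.79, the opposite direction to both sensors. The Ifit, Oas, Gbp and PYHIN families, which belong to the same response, had 30 genes tested. With curdlan 21 rose and 1 fell in WT and 23 rose in KO, and 29 and 30 were higher in KO without and with curdlan. The fall was that of Gbp8 (-0.59), lost without WT unstimulated 1 or WT curdlan 2 or 4 (edgeR adjusted p up to 0.119).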

How the data were processed

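Per the labels' protocols, TRIzol and RNeasy columns gave the RNA, TruSeq RNA v2 the libraries and a HiSeq 2000 the reads. The deposited table holds raw counts per gene for 12 libraries. Tools named in the submitters' processing notes are featureCounts 1.4.6, TopHat2 2.4.2a, DESeq2 1.8.2, SAMtools 1.2 and FastQC 0.11.1. Build, annotation, strand setting and treatment of multi-mapped reads: not given in the sources used here. Of 37991 genes, 10118 had no count and 33170 carried a symbol. The authors also deposited log2 fold changes and adjusted p-values from DESeq2 for KO against WT with curdlan, used here beside the fitted values in a single sentence. A second deposited comparison table was not used, because the coefficient it tests is not stated, and 24 per-sample columns of the comparison tables were not used.

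Groups came from the sample labels and library numbers from the count columns. In the comparison table the WT curdlan columns are numbered otherwise than the identical count columns, and the sample titles use other numbers again. Counts were fitted with edgeR 4.0.16 (R 4.3.3, limma 3.58.1): filterByExpr with its minimum count of 10, TMM factors, 4 group means over all 12 libraries, the quasi-likelihood F-test (two-sided) and Benjamini-Hochberg adjustment over the 18981 genes tested, with calls at an adjusted p under 0.05. This procedure was tested on simulated data. The standard errors and intervals belong to that fit. CPM values use TMM-scaled library sizes, and RPKM values divide them by the exon length of GENCODE M21, read with rtracklayer 1.62.0, which matched members by gene identifier. Promoter windows came from RefSeq on GRCm38.p6 and were matched by symbol.

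All 34 members are named, with values by library for those with the largest changes and for some of each role. Pathway lists are given by counts, with the ligand, receptor and transducer genes named there and up to 3 others per list, and the values of 1 gene under that rule are not reported here. The members and all lists were chosen with earlier results of these data known. Alternatives were relative log expression factors, library size alone, no filter on low counts, DESeq2 1.42.0, a fit of the compared groups alone, library number as a block, and leaving out each library.

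Within groups, pairs of libraries differed by more than sampling noise (chi-square per degree of freedom 9.86 to 83.9), so none were merged. Library numbers paired WT libraries across states: deviations from the group means correlated at 0.60, 0.44 and 0.22 for the same number. In KO the states share 2 numbers (0.40 for number 2 and 0.75 for number 5). Pairs of different numbers ran from -0.50 to 0.14 in WT and from -0.66 to 0.39 in KO. Unstimulated KO 2 correlated with KO curdlan 4 at 0.39, and unstimulated KO 1 with KO curdlan 2 at 0.36. The correlations thus do not single out the pair numbered 2 in KO. The pairing rests on the library names and, for the other shared numbers, on these correlations. The depth, at least 41421718 counts per library, gives 20 counts for Ifnb1 in unstimulated WT.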

Additional observations from a re-analysis of the deposited data

Results flagged for a closer look

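Among the members, 6 curdlan responses differed between genotypes by the edgeR test of the difference itself (adjusted p under 0.05, values as log2 response in KO minus WT). The differences were -1.98 for Rsad2, -1.24 for Rtp4, -1.08 for Isg15, 0.88 for Ifi35, 0.61 for Trim25 and 0.52 for Nmi. Rsad2 gave 4.59 in WT and 2.61 in KO, Rtp4 2.13 and 0.89, and Isg15 2.83 and 1.74. Ifi35 gave 0.43 and 1.31, Trim25 1.03 and 1.64, and Nmi -0.16 and 0.36.

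Among the pathway genes, the receptor chains Ifnar1, Ifnar2 and Ifnlr1 had differences of -0.52, -0.46 and -0.73. The feedback inhibitor Socs3 had -0.95, the adaptors Ticam1 and Traf3 -0.67 and -0.59, Oasl1 -1.45 and Oas1c 0.87. Leaving out some single libraries ended the calls of Ifnar1 (adjusted p up to 0.0728, without KO unstimulated 1, WT curdlan 2 or WT unstimulated 1), Ifnar2 (up to 0.0649), Ifnlr1 (up to 0.0923), Ticam1 (up to 0.0816), Traf3 (up to 0.116) and Oas1c (up to 0.0645). Those of Socs3 and Oasl1 passed with any single library left out. Groups of 3 libraries are too small for a check of single libraries far from the rest.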

How the results depend on the processing

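Over 2686 values of single members under the alternatives, 2581 kept their direction and side of the threshold, 59 lost and 27 gained a call, and 19 changed sign, 0 of them from a called value. For the difference between the responses, these values cover only members called in the main fit or under some alternative. Sign changes of the other members in that comparison were not counted. Members with a larger response in KO numbered 5 by DESeq2, 8 with the replicate block, and 1 to 7 with a library left out. Those with a larger response in WT numbered 0 to 3 with a library left out. Library size alone called 1 member lower with curdlan in WT (Nmi) and 2 in KO (Lgals3bp and Ly6e). It also turned log2 fold changes that had not passed: -0.00215 for Bst2, -0.0268 for Herc6 and -0.052 for Sp100 with curdlan in WT, -0.017 for Ifi27l2a and -0.0281 for Lgals9 with curdlan in KO, -0.00874 for Nmi between unstimulated genotypes, and -0.173 and -0.213 for Ly6e between genotypes without and with curdlan. The replicate block turned Lgals3bp (0.0623) and Ly6e (0.0343) with curdlan in KO and Ly6e between genotypes (-0.0931 and -0.0453), and no filter turned Ly6e without curdlan (-0.000366). With a library left out, Herc6 ranged from -0.0706 to 0.205 and Sp100 from -0.0703 to 0.166 with curdlan in WT, and Ly6e from -0.0423 to 0.0928 and from -0.112 to 0.123 between genotypes. The cause was not tested.

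With library number as a block, members higher numbered 27 and 32 for curdlan in WT and KO, with Zbp1 and Lgals9 added in WT and Dtx3l, Ifi27l2a and Lgals9 in KO, and 31 and 33 between genotypes. The KO response to curdlan in the block fit rests on libraries 2 and 5, the numbers present in both states. Numbers did not pair libraries across genotypes (correlations of -0.24, -0.07, 0.14 and -0.29). Depth limits the ligand genes, of which 1 passed the filter.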
